A study of Saccharomyces cerevisiae with 6 samples.

Results

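The genes of the retrograde pathway and of the first steps of the tricarboxylic acid cycle are described here in yeast that overexpressed eEF1A. The set held 4 regulators (RTG1, RTG2, RTG3 and MKS1) and 6 enzyme genes (CIT1, CIT2, ACO1, IDH1, IDH2 and DLD3), 10 of the 5726 Saccharomyces cerevisiae genes measured on the chip. They were chosen by name, as the Rtg regulators and their targets on the route to glutamate, with the results of the same 6 arrays already known. The differences of these 10 genes between the groups are therefore given as a description without a test.

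The retrograde pathway carries information on the state of the mitochondria to the nucleus. Rtg1 and Rtg3 are basic helix-loop-helix transcription factors that bind DNA as a pair, and Rtg2 lets them enter the nucleus by holding back the inhibitor Mks1. In cells with impaired respiration, or with poor supplies of glutamate and glutamine, the pathway turns on the enzymes that make citrate and convert it to 2-oxoglutarate, the carbon skeleton of glutamate. CIT2 and DLD3 are its classical targets, while CIT1, ACO1, IDH1 and IDH2 are also driven by the Hap complex in respiring cells.

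Gene expression was measured in total RNA on 6 Affymetrix Yeast 2.0 arrays, 2 of eEF1A overexpressing cells (eEF1A replicates 2 and 3) and 4 of control cells (control replicates 1 to 4). The eEF1A cells carried a multi-copy plasmid with TEF1, which encodes eEF1A, the elongation factor that brings aminoacyl-tRNA to the ribosome. The methods describe the gene as driven by the GPD promoter. The control cells carried the empty plasmid, and in both groups the plasmid held the LEU2 marker. Both groups are described as wild-type yeast, grown in synthetic medium without leucine at 30°C from an optical density of 0.1 to 0.7, in log phase, and the eEF1A cells are labelled as enlarged and the control cells as of normal size. The methods speak of triplicate cultures, whereas the labels give 2 and 4 arrays, so p-values here measure only the spread between these arrays, whose small number limits the precision.

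Values are log2 expression after robust multi-array averaging (RMA), and a difference is eEF1A minus control on that scale. A probe set's brightness depends on its own sequence, so levels were compared between arrays and never between genes. Arrays correlated at 0.997 within the eEF1A group, at 0.998 to 0.999 within the control group and at 0.975 to 0.976 between the groups.

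The groups differed in more than the plasmid insert. The probe set for TEF1 and TEF2, whose coding sequences are nearly identical, read 14.51 and 14.49 on the eEF1A arrays, against 14.48 to 14.51 on the control arrays (difference 0.00, limma adjusted p = 0.955). At that brightness on every array it gave no check of the labels, and nothing is read from it about the TEF1 mRNA. All 7 marker genes of a cells measured fell in the eEF1A arrays (median difference -4.79) and all 4 of alpha cells rose (median 5.89), with limma adjusted p of at most 3.65e-07. Of 6 auxotrophic marker genes measured, 5 rose. MET17, needed to make methionine, read 11.47 and 11.62 on the eEF1A arrays, against 4.75 to 5.22 on the control arrays, which is background. URA3, measured by a control probe set of the chip, read 7.56 and 7.25 on the eEF1A arrays. On the control arrays it read 4.22 to 4.57, all at background. These differences in mating type and marker genes coincide with the plasmid groups, so their part in any difference below cannot be told apart from that of eEF1A overexpression.

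All 6 enzyme genes read higher on both eEF1A arrays than on every control array, by 0.50 to 1.13, and the 4 regulators lay between -0.15 and 0.14. The values of the regulators depended on the scaling, with RTG1 at -0.30 and MKS1 at -0.15 under quantile normalisation and RTG1 at -0.21 under median centring, where each was past the threshold in the lower direction. The median difference was 0.92 for the enzyme genes (1.90-fold) and -0.05 for the regulators, against 0.04 over all genes. As a description, 6 of 10 members were past an adjusted p of 0.05 in the higher direction, where 27.5% of all genes were, and 0 in the lower direction, where 15.4% were. At a B-statistic (the log odds of a change) above 1.5, the threshold of the study, the higher members were again 6 of 10, against 6.08% of all genes. These counts come from the contrast known when the genes were chosen, so nothing is read from them.

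**Figure D1:**
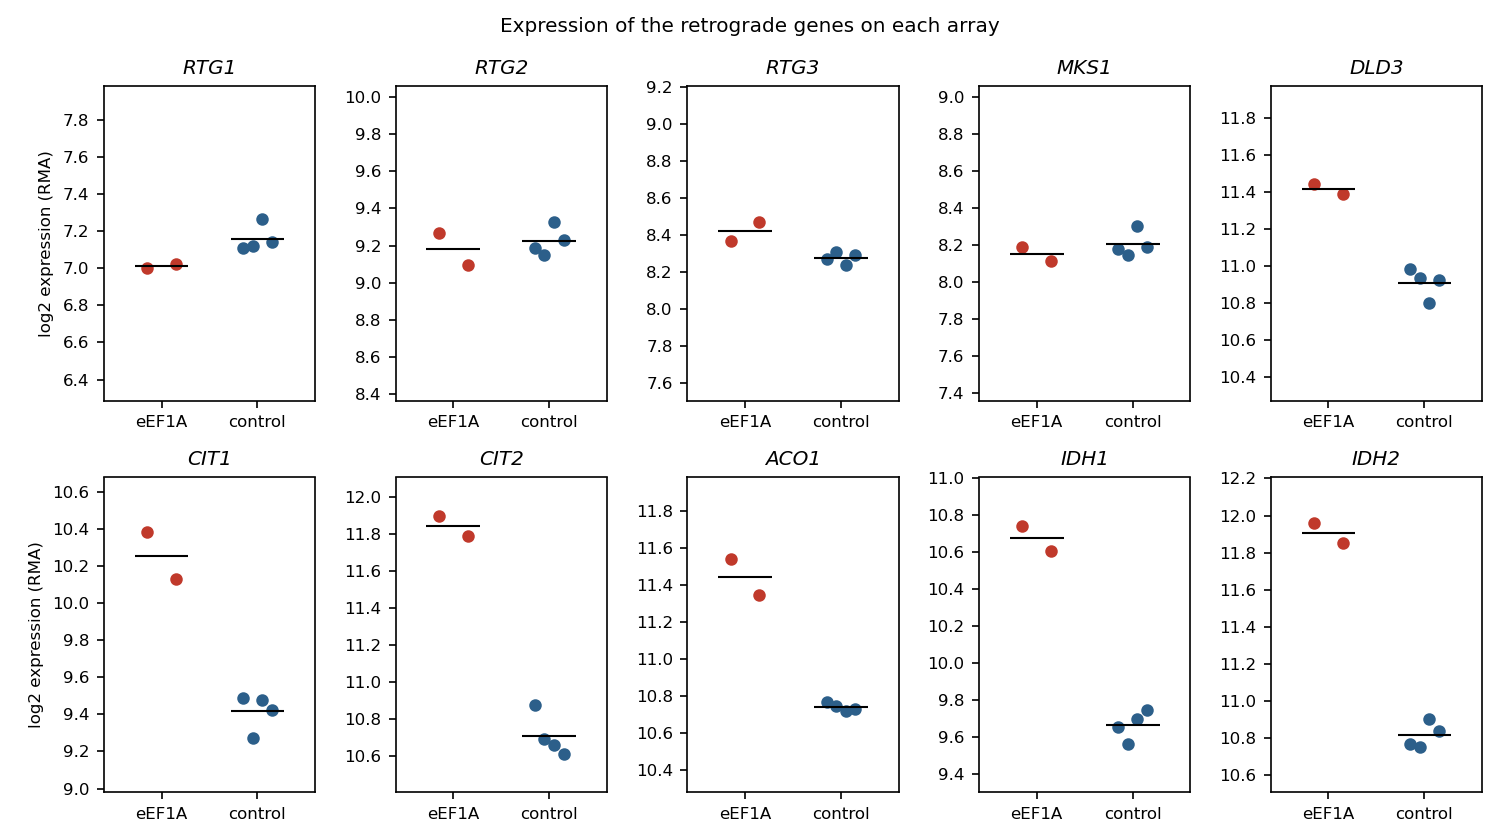
Log2 expression (RMA, vertical axis) of the 10 genes on each of the 2 eEF1A arrays (red) and 4 control arrays (blue), with the group mean as a line. Each panel spans the same height in log2 units but starts at its own level. The red points of the enzyme genes lie 0.40 to 0.95 above the highest blue point, while those of RTG2 and MKS1 overlap the range of the blue points.

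Among the regulators, RTG1 read 7.001 and 7.022 on the eEF1A arrays, against 7.109, 7.123, 7.268 and 7.140 on the control arrays. Both eEF1A arrays were below every control array, with a gap of 0.09 to the nearest and a difference of -0.15 (SE 0.06). RTG3, its partner, read 8.37 and 8.47 on the eEF1A arrays and 8.27, 8.31, 8.24 and 8.29 on the control arrays. Here the eEF1A arrays were the higher ones, by a gap of 0.06 and a difference of 0.14 (SE 0.05). The partners lay on opposite sides of 0, and the sizes of their shifts were alike only in this scaling, since under quantile normalisation RTG1 was at -0.30 and RTG3 at 0.06.

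RTG2, the ATP-binding sensor protein of the pathway, read 9.27 and 9.10 on the eEF1A arrays, against 9.19, 9.15, 9.33 and 9.23 on the control arrays. The groups overlapped and the difference was -0.04 (SE 0.07), within the control spread (SD 0.08, n = 4). MKS1, the inhibitor, read 8.19 and 8.11 on the eEF1A arrays and 8.18, 8.15, 8.31 and 8.19 on the control arrays, which also overlapped (difference -0.05, SE 0.06). Control replicate 3 was the highest control array for RTG1, RTG2 and MKS1.

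CIT2 encodes the peroxisomal citrate synthase and had the largest difference of the 10 genes. It read 11.90 and 11.79 on the eEF1A arrays, against 10.88, 10.69, 10.66 and 10.61 on the control arrays. The lower eEF1A array stood 0.91 above the highest control array, and the difference was 1.13 (SE 0.08, 2.19-fold). Counted from the largest rise, CIT2 had rank 64 of the 5726 genes. In these bulk samples, more RNA per cell and more cells that express a gene cannot be told apart, for this and every other gene.

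CIT1, the mitochondrial citrate synthase that makes citrate from oxaloacetate and acetyl-CoA, read 10.38 and 10.13 on the eEF1A arrays, against 9.49, 9.28, 9.48 and 9.42 on the control arrays. Its difference was 0.84 (SE 0.09, 1.79-fold) and the groups were 0.64 apart. Its eEF1A arrays were also the least alike of the 10 genes (SD 0.18, n = 2). The difference of CIT1 minus that of CIT2 was -0.29, from -0.22 on eEF1A replicate 2 and -0.36 on eEF1A replicate 3.

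ACO1 encodes aconitase, which turns citrate into isocitrate. It read 11.54 and 11.35 on the eEF1A arrays, against 10.77, 10.74, 10.72 and 10.73 on the control arrays. The control arrays of ACO1 were the tightest of the 10 genes (SD 0.02, n = 4), the gap between the groups was 0.58, and the difference was 0.70 (SE 0.06, 1.63-fold).

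IDH1 and IDH2 encode the subunits of the mitochondrial NAD-dependent isocitrate dehydrogenase, which makes 2-oxoglutarate. IDH1 read 10.74 and 10.60 on the eEF1A arrays, against 9.65, 9.56, 9.70 and 9.74 on the control arrays. IDH2 read 11.96 and 11.85 on the eEF1A arrays, against 10.77, 10.75, 10.90 and 10.84 on the control arrays. Their differences of 1.01 (SE 0.07, 2.01-fold) and 1.09 (SE 0.06, 2.13-fold) were 0.08 apart, close to their standard errors. Over the 6 arrays, each taken from its control mean, the Euclidean distance was 0.149 between the IDH subunits and 0.476 between the citrate synthases.

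DLD3, a cytosolic enzyme that reduces pyruvate to D-lactate while it oxidises 2-hydroxyglutarate to 2-oxoglutarate, had the smallest difference of the enzyme genes. It read 11.44 and 11.39 on the eEF1A arrays, against 10.98, 10.93, 10.80 and 10.92 on the control arrays. The groups were 0.40 apart, with a difference of 0.50 (SE 0.06, 1.42-fold).

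In order of their differences, the enzyme genes ran CIT2, IDH2, IDH1, CIT1, ACO1 and DLD3. The steps between neighbours were 0.04, 0.08, 0.17, 0.14 and 0.20, against standard errors of 0.06 to 0.09 for single genes. The order was not tested, and no firm order is read from it. The smallest steps were those among CIT2, IDH2 and IDH1. Counted from the largest rise, CIT2, IDH2 and IDH1 had ranks 64 to 83 among all genes. CIT1 and ACO1 had ranks 116 and 195, and DLD3 had rank 397, at the percentile 93.1 of all genes. The regulators lay between the percentiles 20.2 (RTG1) and 66.0 (RTG3).

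**Figure D2:**
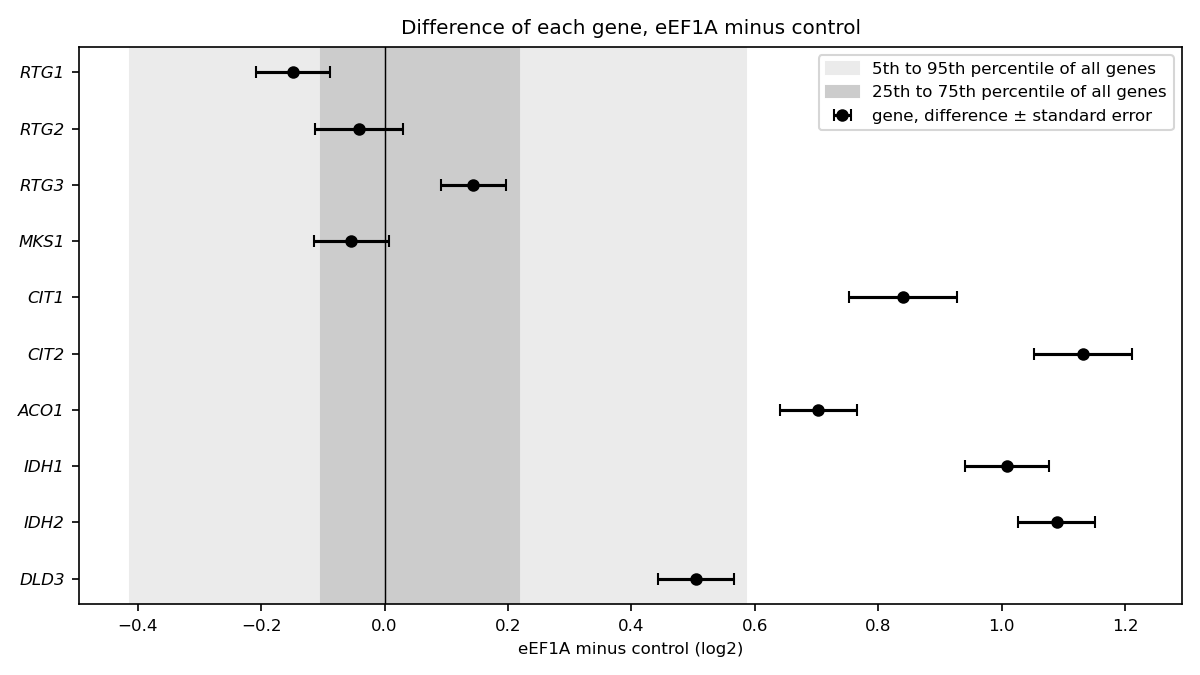
Difference of each gene between the eEF1A and control arrays (log2, horizontal axis), with its standard error from the limma fit as a bar, against the middle ranges of all 5726 genes as grey bands. The 4 regulators lie between -0.15 and 0.14, and of the enzyme genes only DLD3, at 0.50, lies inside the band that ends at the 95th percentile (0.59).

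Both eEF1A arrays lay above all 4 control arrays for 7 of the 10 genes, the 6 enzyme genes and RTG3, as they did for 35.8% of all genes. They lay below all 4 control arrays for 1 of the 10, RTG1, as they did for 21.5% of all genes. Separation of the arrays alone was thus common.

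The eEF1A arrays were not alike in their general level. All 6 enzyme genes read higher on eEF1A replicate 2 than on eEF1A replicate 3, by a median of 0.12, as did 2 of the 4 regulators. Over all genes 4706 of 5726 did so, by a median of 0.11, and the median level of S. cerevisiae probe sets was 9.12 and 9.03 on eEF1A replicates 2 and 3, against at most 9.05 on a control array. With either eEF1A array left out, the enzyme genes had differences of 0.48 (DLD3 without eEF1A replicate 2) to 1.19 (CIT2 without eEF1A replicate 3).

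Each of the 10 genes had 1 probe set that named no other gene, and all 10 were above background, set at 5.18, the level of 95% of the Schizosaccharomyces pombe probe sets on the same chip. They lie on 7 chromosomes. In the genome version of the chip annotation (SGD, October 2003), CIT1 (YNR001C) spans chr14:629619-631058 and IDH1 (YNL037C) chr14:557916-558998, both on the minus strand, and MKS1 (YNL076W) lies on the same chromosome at chr14:483553-485307 on the plus strand. RTG1 (YOL067C, chr15:201984-202517, minus strand) and IDH2 (YOR136W, chr15:580250-581359, plus strand) share another chromosome. CIT2 (YCR005C) spans chr3:120940-122322, ACO1 (YLR304C) chr12:735212-737548, RTG2 (YGL252C) chr7:25718-27484 and RTG3 (YBL103C) chr2:22070-23530, all on the minus strand, and DLD3 (YEL071W) spans chr5:16355-17845 on the plus strand. All 10 spans are a multiple of 3 in length and hold the open reading frame.

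The genes beside the enzyme genes were looked up after the values were seen, in the gene order of the RefSeq R64 annotation. Of 11 such genes measured, 3 rose and 2 fell, and their median difference was 0.01. MET17, the marker gene described above, lies next to ACO1. On the other side of ACO1, STT4 differed by 0.01 (limma adjusted p = 0.883). NCE103, a carbonic anhydrase gene next to IDH1, fell by 1.83 on the log2 scale (adjusted p = 3.39e-05), and SIA1, next to IDH2, rose by 0.76 (adjusted p = 3.79e-04). ATO2, next to CIT1, rose by 0.45 (adjusted p = 0.00152) and RMD6, next to DLD3, fell by 0.21 on the log2 scale (adjusted p = 0.0290). RMD6 lost its call without eEF1A replicate 2 (-0.20) or 3 (-0.22). It also lost it without control replicate 1 or 4 (adjusted p 0.0713 and 0.0741). Over its alternatives the adjusted p was up to 0.527. The medians of the 16 chromosomes lay between 0.02 and 0.06.

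The rest of the pathway was described from lists of its other genes, also chosen with earlier results of these data known. Each gene was tested with limma, with Benjamini-Hochberg adjustment over all 5726 genes. That adjustment does not allow for the choice of the lists, so their counts are a description. Of 69 such genes measured, 24 rose, 5 fell and 40 did not pass, with a median difference of 0.14, against 1575 that rose, 884 that fell and 3267 that did not pass among all genes, with a median of 0.04. The largest rises among the 69, of LYS14 (0.68) and GLN1 (0.63), lay between those of ACO1 and DLD3.

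**Figure D3:**
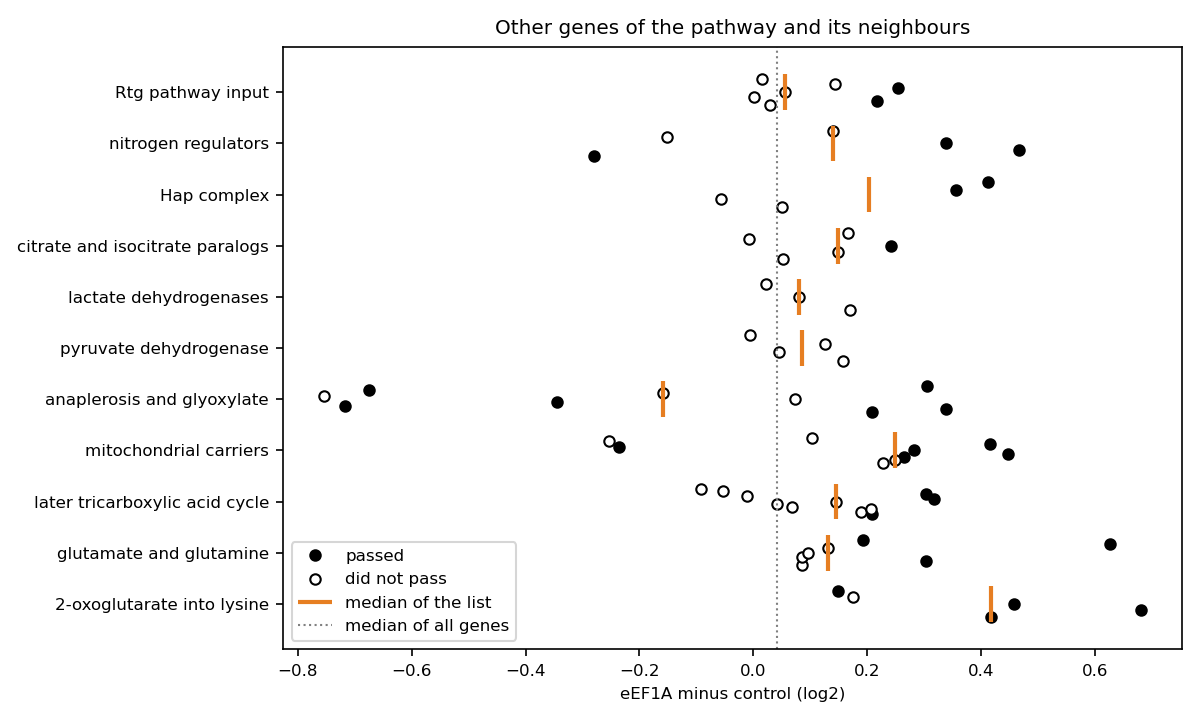
Difference between the eEF1A and control arrays (log2, horizontal axis) of the other pathway genes, 1 point a gene, by list. Filled points passed an adjusted p of 0.05, orange bars are list medians and the dotted line is the median of all genes (0.04). The list medians lie between -0.16 and 0.42, and the filled point at -0.28 is DAL80, at background in both groups.

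Of 7 genes that act on the Rtg regulators, 2 rose and 5 did not pass (median 0.06). LST8, a TOR complex subunit that restrains the pathway, read 8.89 and 8.77 on the eEF1A arrays, against 8.53 to 8.63 on the control arrays (difference 0.25, adjusted p = 0.00784). BMH2, a 14-3-3 protein that binds Mks1, rose by 0.22 (adjusted p = 0.0171), a call that was lost without eEF1A replicate 2 (0.14, adjusted p = 0.0739) and had an adjusted p of up to 0.253 over its alternatives. Its sister BMH1 differed by 0.03 (adjusted p = 0.658), and GRR1, the F-box protein that targets Mks1 for destruction, by 0.00 (adjusted p = 0.989).

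Of the 5 regulators of nitrogen use, 2 rose, 1 fell and 2 did not pass. GAT1 and GLN3, GATA-type activators of genes for poor nitrogen sources, rose by 0.47 (adjusted p = 0.00458) and 0.34 (adjusted p = 0.00935). GLN3 read 8.33 and 8.30 on the eEF1A arrays, against 8.02, 8.05, 7.80 and 8.04 on the control arrays, of which replicate 3 was the low one. URE2, which holds Gln3 in the cytoplasm, differed by 0.14 (adjusted p = 0.183) and GZF3, a GATA-type repressor, by -0.15 (adjusted p = 0.196). URE2 passed without control replicate 3 (0.20, adjusted p = 0.0329) and GZF3 without eEF1A replicate 2 (-0.31, adjusted p = 0.00802). GZF3 also passed under quantile normalisation and median centring (adjusted p of at most 0.0479), whereas GLN3 lost its call under quantile normalisation and with array weights (adjusted p up to 0.0552). The fall was that of DAL80 (adjusted p = 0.00855), which was at background in both groups, so no size is given.

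The Hap complex drives CIT1, ACO1, IDH1 and IDH2 in respiring cells, and Hap4 is its limiting activator subunit. HAP4 read 9.57 and 9.26 on the eEF1A arrays, against 8.99 to 9.12 on the control arrays (difference 0.36, adjusted p = 0.0121). Its call was lost with the replicate number as a block and with control replicates 2 and 3 only (adjusted p up to 0.0903). HAP5 rose by 0.41 (adjusted p = 0.00261), whereas HAP2 differed by 0.05 (adjusted p = 0.471) and HAP3 by -0.06 (adjusted p = 0.416). The median of the 4 genes was 0.20.

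Of 5 paralogs of the enzyme genes in citrate and isocitrate metabolism, 1 rose and 4 did not pass (median 0.15). IDP1, the mitochondrial NADP-dependent isocitrate dehydrogenase, rose by 0.24 (adjusted p = 0.00703). IDP2, the cytosolic NADP-dependent enzyme, differed by -0.01 (adjusted p = 0.98). None of 3 lactate dehydrogenase genes passed, and DLD1 and DLD2, relatives of DLD3, differed by 0.08 (adjusted p = 0.344) and 0.02 (adjusted p = 0.754).

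Carbon enters the cycle as acetyl-CoA from pyruvate dehydrogenase and as oxaloacetate from pyruvate carboxylase. None of 4 pyruvate dehydrogenase genes passed (median 0.09), among them PDA1 at 0.05 (adjusted p = 0.587) and LAT1 at 0.16 (adjusted p = 0.0587), which passed without eEF1A replicate 3 (adjusted p = 0.0317) and without control replicate 3 (adjusted p = 0.0452). In the 9 genes of anaplerosis and the glyoxylate cycle, 3 rose, 3 fell and 3 did not pass. PYC1, a pyruvate carboxylase gene, read 11.30 and 11.22 on the eEF1A arrays, against 11.66 to 12.22 on the control arrays (difference -0.67, adjusted p = 0.00463), while its paralog PYC2 rose by 0.31 (adjusted p = 0.00338). The list median was -0.16.

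ICL1, isocitrate lyase, which takes isocitrate into the glyoxylate cycle, read 7.61 and 7.15 on the eEF1A arrays, against 7.78 to 8.54 on the control arrays (difference -0.72, adjusted p = 0.0225). Its call was lost without eEF1A replicate 3 (-0.49, adjusted p = 0.145, the highest over its alternatives). MDH2, the cytosolic malate dehydrogenase, fell by 0.34 on the log2 scale (adjusted p = 0.00193). CAT2, carnitine acetyltransferase, rose by 0.34 (adjusted p = 0.00587). MDH3, the peroxisomal malate dehydrogenase, differed by 0.07 (adjusted p = 0.268) and PCK1, the first enzyme of gluconeogenesis, by -0.16 (adjusted p = 0.612).

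Of 9 mitochondrial carrier genes, 4 rose, 1 fell and 4 did not pass (median 0.25). DIC1, the dicarboxylate carrier, read 11.20 and 11.20 on the eEF1A arrays, against 10.69 to 10.81 on the control arrays (difference 0.45, adjusted p = 3.96e-04). ODC2, which exports 2-oxoglutarate, rose by 0.42 (adjusted p = 4.26e-04), while its paralog ODC1 fell by 0.24 on the log2 scale (adjusted p = 0.0388). The call of ODC1 was lost without eEF1A replicate 3 or any 1 of the control arrays (adjusted p 0.0594 to 0.220). OAC1, the oxaloacetate carrier, rose by 0.28 (adjusted p = 0.00433) and CTP1, the citrate carrier, by 0.27 (adjusted p = 0.0300). The call of CTP1 was lost without eEF1A replicate 2 (0.29) or 3 (0.24). It was also lost without control replicate 1, 2 or 4 (adjusted p 0.0670 to 0.0713). Over the alternatives of CTP1 the adjusted p was up to 0.267.

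Beyond 2-oxoglutarate, 3 of 11 genes of the later tricarboxylic acid cycle rose and 8 did not pass (median 0.15). MDH1, the mitochondrial malate dehydrogenase, rose by 0.32 (adjusted p = 0.00643), SDH2, a succinate dehydrogenase subunit, by 0.30 (adjusted p = 0.00413), and FUM1, fumarase, by 0.21 (adjusted p = 0.0158). FUM1 lost its call without eEF1A replicate 2 (adjusted p = 0.0638) or control replicate 1 (adjusted p = 0.0501). LPD1, the dihydrolipoamide dehydrogenase shared by several complexes, differed by 0.07 (adjusted p = 0.528), and LSC1, a subunit of succinyl-CoA ligase, by 0.04 (adjusted p = 0.774), or by 0.24 without eEF1A replicate 3 (adjusted p = 0.0237).

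On the way from 2-oxoglutarate to amino acids, 3 of 7 genes of glutamate and glutamine metabolism rose and 4 did not pass (median 0.13). GLN1, glutamine synthetase, read 13.20 and 13.22 on the eEF1A arrays, against 12.50 to 12.69 on the control arrays (difference 0.63, 1.54-fold, adjusted p = 2.26e-04). AAT2, the cytosolic aspartate aminotransferase, rose by 0.30 (adjusted p = 0.00278) and GLT1, glutamate synthase, by 0.19 (adjusted p = 0.0152). GLT1 lost its call without control replicate 4 (adjusted p = 0.0528). It also lost it with array weights, the replicate block or control replicates 2 and 3 only (adjusted p up to 0.395). GDH1, the main glutamate dehydrogenase for synthesis, differed by 0.08 (adjusted p = 0.472) and AAT1, the mitochondrial aminotransferase, by 0.09 (adjusted p = 0.341).

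Lysine synthesis starts from 2-oxoglutarate, and 4 of its 5 listed genes rose (median 0.42). LYS14, the activator of the pathway, rose by 0.68 (adjusted p = 1.67e-04), LYS20, a homocitrate synthase, by 0.46 (adjusted p = 2.16e-04) and LYS12, homoisocitrate dehydrogenase, by 0.42 (adjusted p = 4.08e-04). LYS4, homoaconitase, rose by 0.15 (adjusted p = 0.0427) and lost its call without eEF1A replicate 2 (0.15) or 3 (0.14). Its call was also lost without control replicate 1, 2 or 4 (adjusted p 0.101 to 0.113). Over its alternatives the adjusted p was up to 0.572. LYS21, the other homocitrate synthase, differed by 0.17 (adjusted p = 0.0909) and passed without control replicate 2 (adjusted p = 0.0326). LYS2, a later lysine gene on the list of auxotrophic markers, rose by 0.23 (adjusted p = 0.00771).

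Of the other auxotrophic markers, ADE2 rose by 0.51 (adjusted p = 6.27e-04) and HIS3 by 0.29 (adjusted p = 0.00216). LEU2, the marker on the plasmids of both groups, read 14.42 and 14.43 on the eEF1A arrays, against 14.35 to 14.40 on the control arrays (difference 0.06, adjusted p = 0.352). Taking background as the floor, MET17 was at least 82.0-fold (adjusted p = 5.82e-09) and URA3 at least 4.68-fold higher (adjusted p = 9.45e-07) in eEF1A arrays.

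For CIT2 and RTG1, at the ends of the range of the 10 genes, the 4 genes with the nearest profile over the 6 arrays were looked up, each gene taken from its control mean. Those nearest to CIT2 were FMP48 (distance 0.168), ENO1, an enolase of glycolysis (0.187), PLB1, a phospholipase B (0.226), and YNL134C (0.230). FMP48 read 8.29 and 8.14 on the eEF1A arrays, against 7.03 to 7.25 on the control arrays. Those nearest to RTG1 were MEX67 (0.029) and GLE2 (0.048), which act in export from the nucleus, FRK1 (0.054) and HIR1 (0.059). The differences of the first 4 ran between 1.09 and 1.20 and those of the last 4 between -0.15 and -0.12.

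The differences of the 10 genes were recomputed under 18 alternative settings, of which those that change only the threshold, the moderation or the filter leave a difference as it is. The enzyme genes lay between 1.07 and 1.19 for CIT2, 1.03 and 1.14 for IDH2, 0.94 and 1.08 for IDH1, 0.72 and 0.97 for CIT1, 0.61 and 0.80 for ACO1, and 0.45 and 0.55 for DLD3. RTG1 lay between -0.30 and -0.11, MKS1 between -0.15 and -0.02, and RTG3 between 0.06 and 0.20. RTG2 lay between -0.13 and 0.04, and was above 0 only without eEF1A replicate 3.

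**Figure D4:**
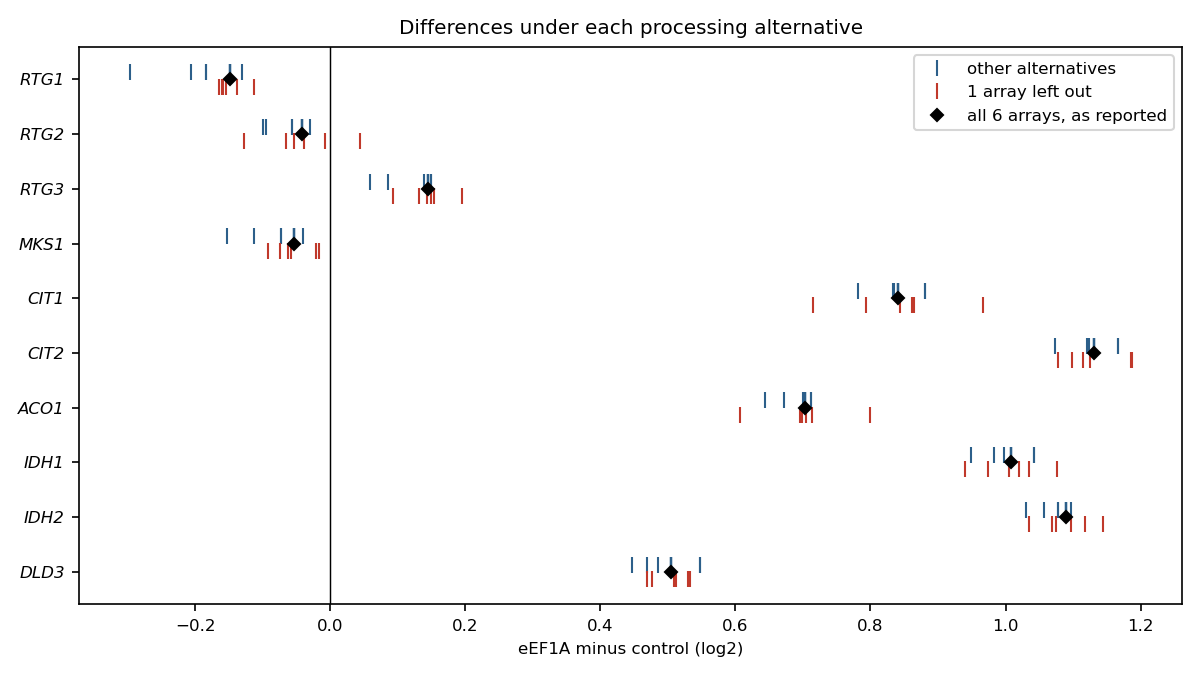
Difference of each gene between the eEF1A and control arrays (log2, horizontal axis) with all 6 arrays (diamond), with 1 array left out (red ticks) and under other settings (blue ticks). The enzyme genes range from 0.45 (DLD3) to 1.19 (CIT2), and RTG2 is the gene whose ticks lie on both sides of 0.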

How the data were processed

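RNA was measured on 2 eEF1A and 4 control arrays, grouped by the sample labels. The authors ran RMA in affylmGUI, and the deposited values are log2 expression of 10928 probe sets, and the annotation deposited with the chip was used for gene names and positions. RMA scaled the arrays over the whole chip, S. pombe sets included, and assumes that most of them do not change. The authors' deposited comparison (log2 fold changes, B-statistics and p-values) was not used. No depth exists for arrays, and their number limits the precision.

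From the 5810 S. cerevisiae probe sets, 26 control sets without a gene name were left out, while those with one, as for URA3, were kept. Of the rest, 71 named several genes, and for 40 genes with several sets the one with the highest mean was kept, which left 5726 genes. Locus tags of 5713 sets matched the RefSeq R64 table. limma 3.58.1 in R 4.3.3 was fitted with the group as the only term (4 residual and 4.09 prior degrees of freedom), with Benjamini-Hochberg adjustment over all genes and a threshold of 0.05. The fit was tested on simulated data. A group at or below 5.18 was taken as background.

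The 10 genes and all lists were chosen with earlier results of these data known. The text names the 10 genes, from each list up to 4 genes that passed with the largest difference and up to 2 that did not with the highest mean, the 4 nearest profiles of the genes with the largest rise and fall, the auxotrophic markers, and TEF1 or TEF2. PYC2, ODC1 and neighbouring genes were added after their values were seen. Genes of the mitochondrial DNA and TRP1 were not analysed here, nor were promoter and protein sequences, and 1 gene that the rule would name is not reported here. The alternatives were other thresholds, filters, normalisations, variance models, array weights, probe set choices, a replicate block and leaving out arrays.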

Additional observations from a re-analysis of the deposited data

Results flagged for a closer look

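Among 78 genes looked at, the 10 genes and 68 others taken up by the naming rule or added to it, 2 had 1 control array far from the other 3, judged by its gap to the nearest as a share of the range of the 4 arrays and set against Dixon's critical value. Chance gives about 1 in 20. For GLN3 the share was 0.883, with control replicate 3 at 7.80 and the others at 8.02 to 8.05. For AAT1 it was 0.878, with control replicate 3 at 10.35 and the others at 10.15 to 10.18. Neither is among the 10 genes.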

How the results depend on the processing

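Of 68 genes named beside the 10, 36 kept their call in all 18 alternatives and 0 reversed. Counts of the 10 genes are a description. With the B-statistic threshold of 1.5 the counts were 348 higher and 144 lower genes (pathway lists 6 and 0). With quantile normalisation over S. cerevisiae probe sets 1371 genes were higher and 1491 lower, and with median centring 1376 and 1451, against 1575 and 884 as reported, and these settings moved the median of all genes by -0.05 and -0.06. Members called lower were then 2 (RTG1 at -0.30 and MKS1 at -0.15) and 1 (RTG1 at -0.21), against 0. Array weights, 0.404 for either eEF1A array, gave 562 lower genes (pathway lists 3). With control replicates 2 and 3 only, 853 genes were higher and 461 lower (pathway lists 11 and 3).

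The deviations of same-numbered arrays, replicate 2 minus 3 in each group, correlated at -0.03 over 5726 genes. That is 1 pair of contrasts, so it cannot decide whether the replicate numbers pair the arrays. With the number as a block, 773 genes were higher and 436 lower, and the pathway lists had 9 and 4. Among the calls lost with the block were those of LST8, HAP4, IDP1, PYC2, CAT2, OAC1 and SDH2. These were also lost with control replicates 2 and 3 only (limma adjusted p up to 0.207). Both settings give the same difference, because no eEF1A array shares the number of control replicate 1 or 4. They are therefore not separate checks, and both leave fewer residual degrees of freedom than the main fit. AAT2, MDH1 and HIS3 lost theirs with the block (adjusted p up to 0.127).

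With 1 array left out, 1189 to 1857 genes were higher and 623 to 1234 lower, 6 to 7 members were higher (RTG3 at 0.20 without eEF1A replicate 2) and 0 lower, and 19 to 29 list genes were higher and 3 to 7 lower, the 3 without eEF1A replicate 3. A lone eEF1A array is then assumed to vary like the controls. An alternative with a shorter promoter window was not run.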

Other observations

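Hybridisation controls outside the comparison differed between arrays. The 6 spike probe sets looked at, those of BioC, BioDn and CreX, read 7.79 to 11.81 on eEF1A replicate 2, each below every other array. The CreX 3′ set, for one, read 11.81 on eEF1A replicate 2, 13.63 on eEF1A replicate 3 and 13.47 to 13.55 on the control arrays.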
